A study of Mus musculus with 14 samples.

Results

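The genes described here encode the machinery that brings RNA polymerase II to a promoter: the Mediator complex, the TATA-binding protein (TBP) and its relatives, the TBP-associated factors (TAFs) and the subunits of the general transcription factors TFIIA, TFIIB, TFIIE, TFIIF and TFIIH. Members were chosen by gene symbol alone, and 68 of the 56923 genes in the count table matched. They comprised 30 Mediator subunits (7 head, 10 middle, 9 tail and 4 kinase module genes), 3 genes of the TBP family, 16 TAFs of TFIID, 7 other TAFs and 12 general transcription factor subunits. RNA-seq counts were available for 14 libraries of mouse 2-cell embryos, 2 for each of 7 conditions, with 5 embryos pooled in each library.

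Embryos came from superovulated female ICR mice, an outbred strain, mated with ICR males, and the mice were 6 to 8 weeks old. Early 2-cell embryos were collected at 30 h and late 2-cell embryos at 54 h after the injection of hCG, the hormone that triggers ovulation. In the G&N groups the embryos were cultured from 24 h after hCG with 5 µM Gne140, which inhibits the lactate dehydrogenases LDHA and LDHB, and 50 µM NMN, a precursor of NAD, in medium with 10 mM lactate. The G&N-L groups had the same additions in medium without lactate, and the G&N-L + Lac-CoA group in addition received 1 mM lactyl-CoA by injection into the zygote. In the H3K18R group, a mixture of mRNAs encoding the H3 variants H3.1, H3.2 plus H3.3, each with lysine 18 changed to arginine, was injected at 200 ng/µL at 14 h after hCG, and in the study's text the WT group received the wild-type mRNAs. All groups except WT and H3K18R carried Gne140 and NMN, so lactate removal was measured in embryos whose own lactate production was inhibited.

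Transcription by RNA polymerase II starts when a preinitiation complex assembles at a promoter. TFIID, made of TBP and TAFs, recognizes the core promoter, TFIIA and TFIIB stabilize it there, TFIIF escorts the polymerase, and TFIIE and TFIIH open the DNA and let the polymerase leave. Mediator connects activators bound elsewhere to this complex, through a tail that contacts activators, a middle and a head that contact the polymerase, and a kinase module that detaches. The mouse embryo starts out with mRNAs stored by the oocyte, which are degraded while the embryo switches on its own genes at the 2-cell stage, and some TAFs and TBP relatives have forms used mainly in germ cells. Several genes named TAF work elsewhere: Taf1a, Taf1b, Taf1c and Taf1d belong to the SL1 factor of RNA polymerase I, Taf5l and Taf6l to the SAGA coactivator, and Taf15 is an RNA-binding protein.

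Library totals ran from 20350427 to 61275465 counts. The limit that a count of 0 allows, 3 counts, equalled 0.0490 to 0.147 per 1000000 counts of the library total, before TMM normalization, which covers counting error only. CPM elsewhere are counts scaled to library sizes of 1000000 after TMM normalization. Summed over 10 oocyte genes, the level was 20581 to 27465 CPM in the early libraries, 13109 to 15089 CPM in late G&N, 16750 to 19214 CPM in late G&N-L, 9897 to 14095 CPM in late Lac-CoA and 3605 to 3684 CPM in late WT. In H3K18R it was 3981 CPM in replicate 1 and 8205 CPM in replicate 2. The sum over 10 genes of the 2-cell stage was 463 to 812 CPM in the early libraries, 2017 to 2133 CPM in late G&N, 2428 to 2862 CPM in late G&N-L, 3280 to 3427 CPM in late Lac-CoA, 1063 to 1421 CPM in WT and 1629 CPM in both H3K18R libraries. The sum over 12 cumulus and granulosa cell genes was 15.2 to 43.7 CPM, with 4 to 10 of the 12 at 0. H3c1, an H3 gene of the kind that was injected, had 43643 and 83390 counts in H3K18R against 4 and 3 in the libraries labelled WT. The other H3 genes looked at, H3c2, H3f3a and H3f3b, did not separate these groups in this way. H3c2 had 1 and 4 counts against 0 and 0, H3f3a was at 865 and 739 against 813 and 841 CPM, and H3f3b at 5274 and 3828.5 against 5225 and 5078 CPM. Whether the embryos labelled WT had received H3 mRNA cannot be told from these values. The titles, which name the groups as the study does, were followed, but the deposited treatment labels differ from them. They give GNE140 and NMN for the early libraries titled G+N-L, GNE140 alone for those titled G+N, and CoA for the Lac-CoA group. By those labels the early groups would differ in NMN and not in lactate, and the injected compound would be CoA. Embryos were taken whole, and less RNA per cell cannot be told apart from fewer cells or a larger amount of other RNA. The 2 libraries of a group may share parents or handling, so that p-values measure the spread between libraries within groups only. That spread was estimated in a single fit over the 7 groups.

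All 68 members passed the filter on low counts, and their levels spanned several orders of magnitude. Of them, 9 members were above 100 CPM in every library (Gtf2a1, Gtf2a2, Med10, Med21, Med27, Med28, Taf12, Taf13 and Tbp), and 7 had 0 counts in at least 1 library (Med8, Med12, Med20, Taf1c, Taf6l, Taf7l and Taf9). Per kilobase of the canonical transcript, Med27, a tail subunit, had the highest level in early G&N embryos, at 1428 ± 137 CPM per kilobase (SD, n = 2), and in late G&N embryos, at 1139 ± 114. In late WT embryos Med10, a middle subunit, led with 1478 ± 36.2 CPM per kilobase. Med27 was then at 236 ± 22.4 CPM per kilobase. On all annotated exons the order differed, with Med30 first in early G&N embryos, so the rank of a gene rests on the length used.

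The group in which a member's mean was highest was late WT for 22 members and early G&N for 20. Late G&N held 8, H3K18R 3 and each of the other groups 5. Late WT also held the largest number of members at their lowest mean, 17. Early G&N-L followed with 15, late G&N-L with 14 and early G&N with 11. These counts rest on the scaling, since fewer members had their highest mean in an early group on library totals. The same counts were not made over all genes, so they cannot be read as particular to the members. The summed level of the 68 members was 9358 to 11143 CPM in the early libraries, 7613 and 8880 CPM in late G&N, 7616 and 8312 CPM in late G&N-L, 7919 and 7439 CPM in late Lac-CoA, 9115 and 9381 CPM in late WT and 8570 and 7729 CPM in H3K18R. On the TMM scale every early library thus lay above every late Gne140-treated one and the H3K18R libraries, but on library totals this order did not hold. The median level of the 68 members did not follow it either. This median was 28.4 to 42.2 CPM in the early libraries, 60.8 and 62.1 CPM in late G&N and 34.8 and 36.9 CPM in late G&N-L. In late Lac-CoA the median was 51.9 and 51.1 CPM, in late WT 58.7 and 55.0 CPM and in H3K18R 62.8 and 54.4 CPM.

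**Figure D1:**
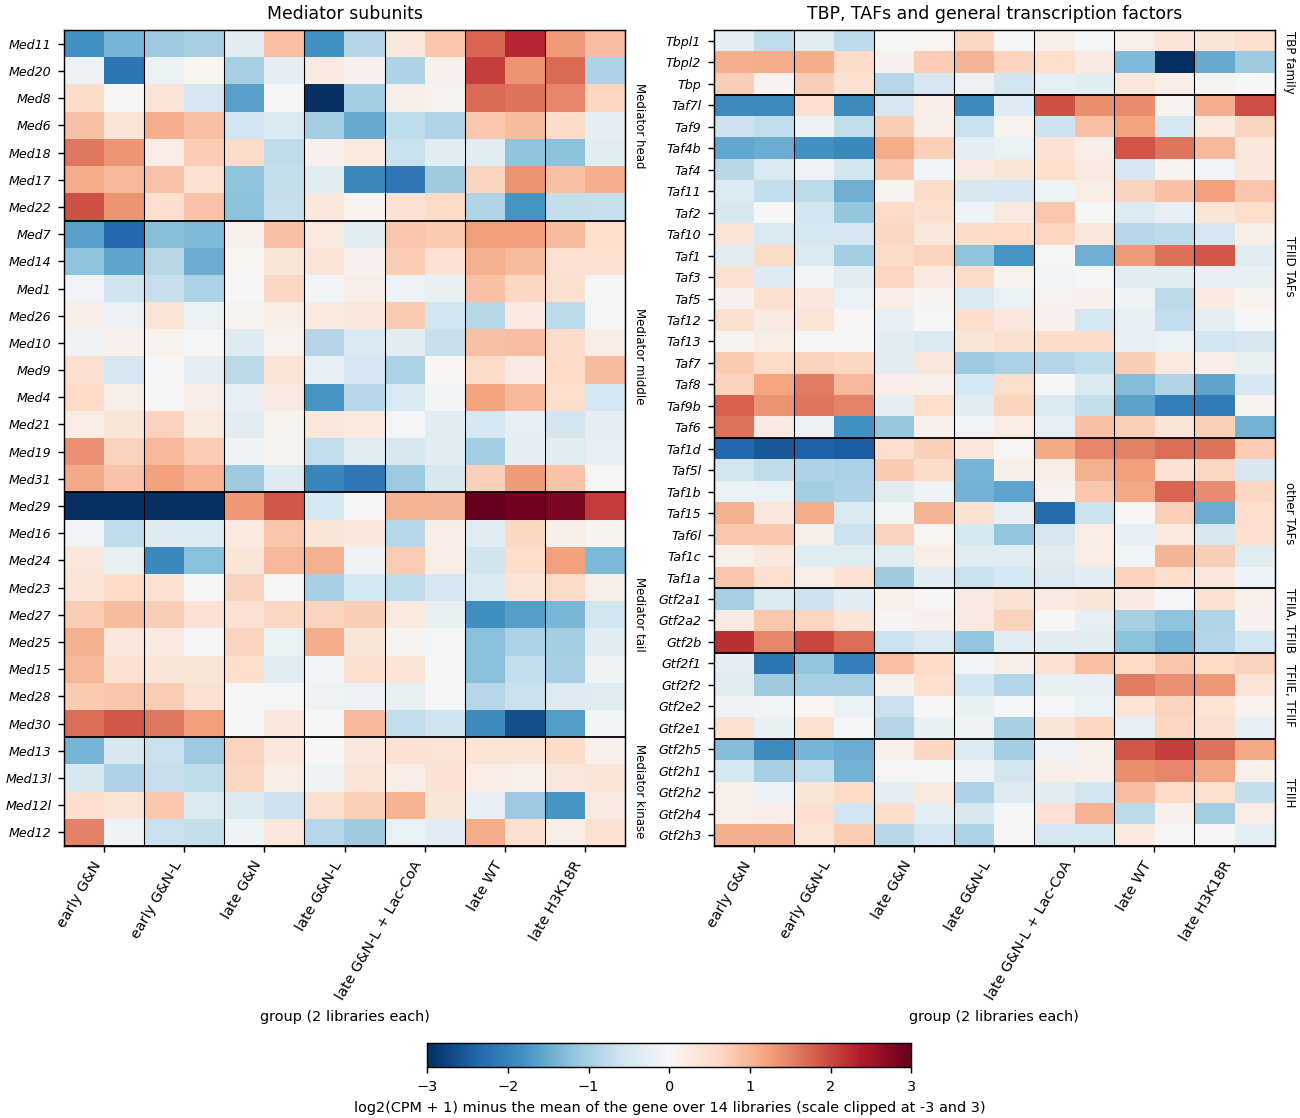
Level of each of the 68 members (rows, grouped by complex and ordered by the change from early to late G&N embryos) in each of the 14 libraries (columns, 2 per group), as log2(CPM + 1) minus the mean of the gene over the 14 libraries, with the colour scale clipped at −3 and 3. Med29 and Taf1d are lowest in all 4 early libraries, whereas Gtf2b and Med30 are highest there.

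The change from the early to the late 2-cell stage with lactate asked which parts of the machinery were replaced while the embryonic genome was switched on. Each change is given as a log2 fold change ± SE from edgeR's quasi-likelihood test with Benjamini-Hochberg adjustment over the 25041 genes tested, and a gene was called at an adjusted p under 0.05. Of the 68 members 18 were called, 8 higher and 10 lower in late than in early G&N embryos. That is 26.5% of the members, against 13.6% of all genes tested. By direction, 11.8% of the members rose against 9.76% of all genes, and 14.7% fell against 3.85%. The median log2 fold change of the members was −0.18, and that of all genes 0.14. Library totals without TMM raised the log2 fold change of a gene by a median of 0.30. With them 16 members were called higher and 6 lower, and 14.5% of all genes were called. The calls of Med6, Med17, Med28 and Med30 were lost. Without late G&N replicate 1, 11 members were called. Over the 4 fits that left out 1 library, 9 of the 18 calls were kept in every fit (Gtf2b, Gtf2h5, Med7, Med14, Med22, Med29, Med31, Taf1d and Taf4b).

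Of the members that rose, Med29, a subunit of the Mediator tail, changed most. It was at 0.765 and 1.21 CPM in early G&N embryos (39 and 53 counts) and at 91.2 and 135 CPM in late G&N embryos. The late libraries lay far above the early ones, with a log2 fold change of 6.84 ± 0.45 (adjusted p = 3.58e-06). Taf1d, of the polymerase I factor SL1, went from 41.5 and 36.1 to 303 and 355 CPM (3.08 ± 0.31, adjusted p = 3.41e-05). Taf4b, a paralogue of the TFIID scaffold subunit Taf4 that is used in germ cells, went from 12.7 and 13.2 to 85.9 and 64.9 CPM (2.54 ± 0.33, adjusted p = 0.000245). In each of these genes the lowest late library was several fold above the highest early one.

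Med7, which forms the hinge of the Mediator middle with Med21, was at 61.8 and 37.9 CPM early and 216 and 355 CPM late (2.52 ± 0.34, adjusted p = 0.000306). Med11, a head subunit, was at 4.49 and 6.42 CPM early and 14.6 and 35.0 CPM late (2.19 ± 0.52, adjusted p = 0.0132). Its call was lost without early G&N replicate 1 (1.95), without late G&N replicate 2 (1.42) and in a fit of the 4 libraries alone (2.09). Of its annotated exon bases 44.0% are shared with Cxcl16 on the opposite strand, and whether the counting used strand was not stated. Gtf2h5, the smallest TFIIH subunit, rose by 2.02 ± 0.33, Med14, the backbone that holds head, middle and tail together, by 1.65 ± 0.31, and Med13, which links the kinase module to the core, by 1.37 ± 0.32, each on the log2 scale.

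Of the members that fell, Med22, a head subunit that pairs with Med11, changed most, from 57.4 and 38.2 CPM to 5.67 and 8.59 CPM (log2 fold change −2.75 ± 0.51, adjusted p = 0.00269). The call of Med22 was kept in every fit that left out 1 library, unlike that of its partner Med11, which was on the opposite side. Gtf2b, the single-subunit factor TFIIB that bridges TBP and the polymerase, went from 1054 and 628 CPM to 146 and 166 CPM (−2.43 ± 0.33, adjusted p = 0.000302). Med17, the scaffold of the head, went from 29.8 and 27.5 CPM to 5.26 and 7.76 CPM (−2.14 ± 0.66, adjusted p = 0.0479). Its call lies close to the threshold and was lost in each of the 4 fits that left out 1 library.

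Gtf2h3, a core subunit of TFIIH, was at 57.3 and 58.1 CPM early and 14.5 and 17.6 CPM late (−1.85 ± 0.41, adjusted p = 0.00886). Med31, a middle subunit, was at 555 and 455 CPM early and 119 and 193 CPM late (−1.69 ± 0.35, adjusted p = 0.00593). The early libraries of both lay above the late ones without overlap, and 31.3% of the exon bases of Med31 are shared with 4930563E22Rik on the opposite strand. Med30 of the tail fell by 1.63 ± 0.47, Taf1a of SL1 by 1.32 ± 0.31, Med6 of the head by 1.16 ± 0.31, Tbp by 1.14 ± 0.27 and Med28 by 0.82 ± 0.21, each on the log2 scale. These 10 genes fell between stages at which the summed oocyte markers also fell, and the part of the stored mRNA in each change was not tested.

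**Figure D2:**
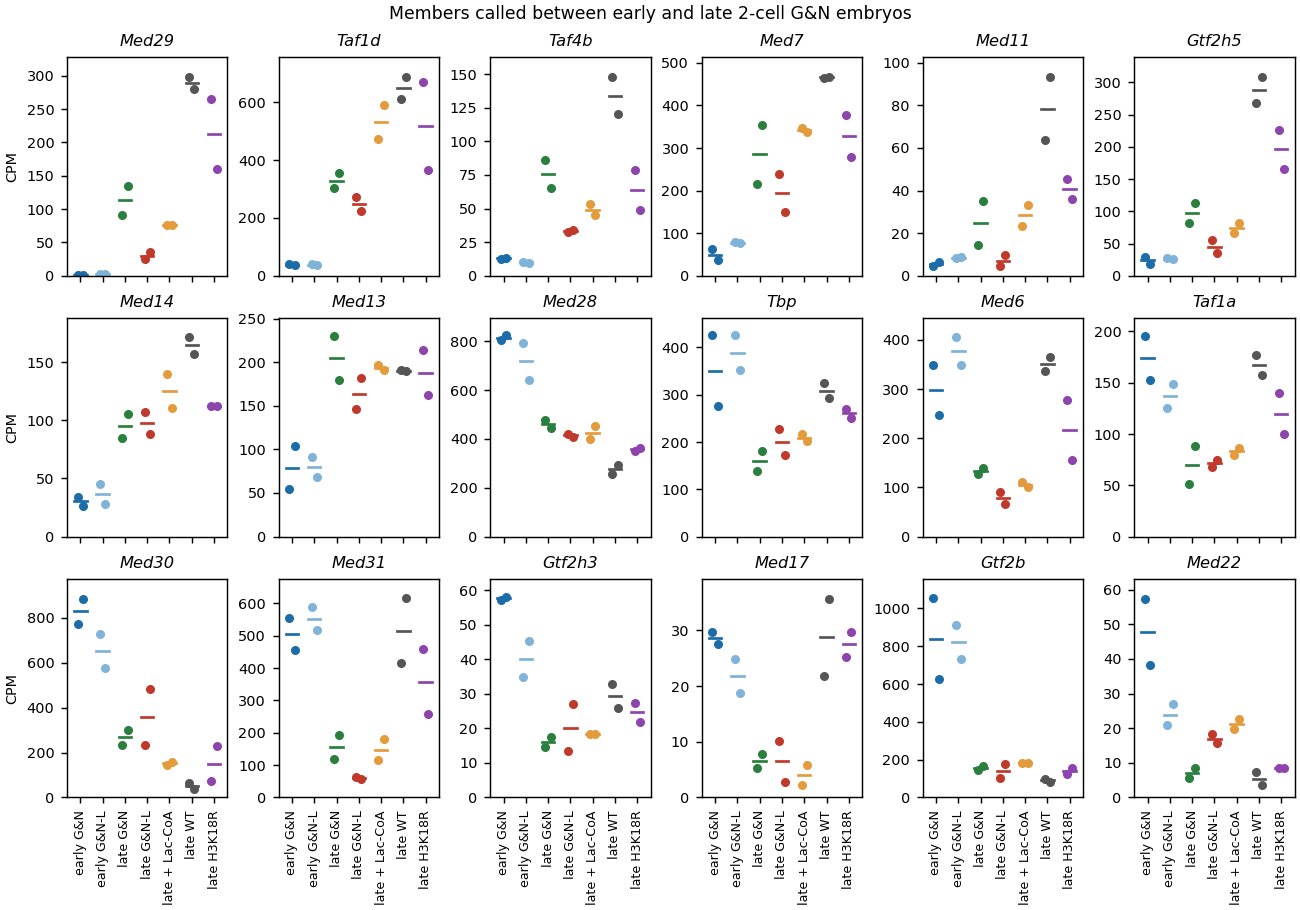
CPM (vertical axes, from 0, scaled separately for each gene) of the 18 members called between early and late G&N embryos, ordered by log2 fold change from the largest rise (Med29) to the largest fall (Med22), in the 7 groups. Points are single libraries and bars are means of 2, and in every panel the 2 early G&N points lie apart from the 2 late G&N points.

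By complex, the Mediator head had 1 member called higher and 3 lower of 7, and its median change was −1.16 on the log2 scale. The middle had 2 higher and 1 lower of 10 (median −0.16), the tail 1 higher and 2 lower of 9 (median −0.33) and the kinase module 1 higher of 4 (median 0.03). Of the 16 TAFs of TFIID, Taf4b was the 1 member called, and the median was 0.42. The TBP family had 1 lower of 3, the other TAFs 1 higher and 1 lower of 7, TFIIA and TFIIB 1 lower of 3, and TFIIH 1 higher and 1 lower of 5. None of the 4 TFIIE and TFIIF genes was called by edgeR, while 2 of them, Gtf2f1 and Gtf2f2, were higher at an unadjusted p under 0.05. Thus calls in both directions occurred within Mediator, within SL1 and within TFIIH.

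The DNA before the start of the canonical transcript is shown for the members with the largest rises and falls among windows that could be printed with at most 30 annotated exon bases, Taf4b, whose window is not shown here, left out, so that the promoters of genes moving in opposite directions can be read side by side. Sequences are from the genome build mm39 with GENCODE starts, 5′ to 3′ on the strand of the gene, and end at the base before the transcript start. Capitals mark matches to 6 motifs searched on both strands: the TATA box (TATAAA), the GC box (GGGCGG), the CCAAT box (CCAAT), the ETS factor motif (CCGGAAG), the YY1 motif (ATGGCGG) and the NRF1 motif. Med29 is at chr7:28092134-28092345 (minus strand), Med7 at chr11:46327508-46327757 (plus), Med11 at chr11:70342482-70342731 (plus), Gtf2b at chr3:142470556-142470805 (plus), Med17 at chr9:15191253-15191502 (minus) and Med6 at chr12:81641781-81642030 (minus). The first 3 rose and the last 3 fell.
Med29: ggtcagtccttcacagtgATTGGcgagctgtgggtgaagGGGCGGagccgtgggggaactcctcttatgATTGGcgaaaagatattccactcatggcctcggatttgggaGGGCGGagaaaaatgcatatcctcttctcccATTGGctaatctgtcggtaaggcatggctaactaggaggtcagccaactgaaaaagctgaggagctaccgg
Med7: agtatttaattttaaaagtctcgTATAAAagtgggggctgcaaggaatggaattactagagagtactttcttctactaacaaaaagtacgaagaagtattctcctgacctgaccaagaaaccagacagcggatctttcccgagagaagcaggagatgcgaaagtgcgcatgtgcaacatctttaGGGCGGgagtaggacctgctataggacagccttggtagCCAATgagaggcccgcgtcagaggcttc
Med11: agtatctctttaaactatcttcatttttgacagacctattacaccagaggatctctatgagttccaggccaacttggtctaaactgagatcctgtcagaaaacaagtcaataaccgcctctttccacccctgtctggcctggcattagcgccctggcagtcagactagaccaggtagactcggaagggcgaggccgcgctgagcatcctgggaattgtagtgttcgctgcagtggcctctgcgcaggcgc
Gtf2b: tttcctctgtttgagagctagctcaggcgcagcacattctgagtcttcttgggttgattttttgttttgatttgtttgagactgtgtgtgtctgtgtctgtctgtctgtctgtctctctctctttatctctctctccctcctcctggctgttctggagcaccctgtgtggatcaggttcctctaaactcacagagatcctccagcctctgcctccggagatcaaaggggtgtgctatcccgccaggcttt
Med17: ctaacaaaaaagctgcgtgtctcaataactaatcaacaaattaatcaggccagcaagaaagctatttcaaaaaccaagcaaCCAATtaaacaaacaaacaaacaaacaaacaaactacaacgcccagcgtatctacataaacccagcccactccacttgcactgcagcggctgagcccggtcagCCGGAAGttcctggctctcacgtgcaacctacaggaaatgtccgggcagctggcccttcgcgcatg
Med6: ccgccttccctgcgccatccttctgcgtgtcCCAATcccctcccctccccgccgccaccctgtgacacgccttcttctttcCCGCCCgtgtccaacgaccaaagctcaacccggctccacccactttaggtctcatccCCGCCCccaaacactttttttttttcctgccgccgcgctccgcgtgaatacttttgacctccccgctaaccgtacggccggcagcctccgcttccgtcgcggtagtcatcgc

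In the Med29 window, GC boxes began 173 and 102 bases and CCAAT boxes 194, 143 and 71 bases upstream of the start. Med7 had a GC box 66 bases upstream, whereas its TATAAA match, 227 bases upstream, lies far from where a TATA box acts. Of the members that fell, Med6 had GC boxes 169 and 112 bases upstream and Med17 a CCGGAAG match 66 bases upstream. The windows of Med11 and Gtf2b held none of the 6 motifs. Over full windows of 250 bases, the GC box was found for 7 of the 8 members that rose (all except Med11), for 3 of the 10 that fell and for 26 of the 50 that were not called. It was present in 52.9% of all members and in 36.3% of 21770 protein-coding promoters of the same length. The limit on exon bases was not applied to these full windows, so part of what is compared is annotated exon of some gene. Among members that rose, exon bases numbered 250 for Med14, 229 for Taf1d and 156 for Gtf2h5. Among those that fell, they numbered 250 for Gtf2h3 and for Med31 and 138 for Med22. The motif CCGGAAG was found in 17.6% of the members against 6.89% of all promoters. It was found for 0 of the 8 members that rose, 2 of the 10 that fell and 10 of the 50 not called. TATAAA was about as frequent in the members (13.2%) as in all promoters (11.9%), as was CCAAT (36.8% and 36.5%). A match is a description of the letters, and no binding was measured here.

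Between early and late embryos without lactate, 12 members were called, 17.6% of them against 10.2% of all genes. Higher were 5 and lower 7, 7.35% and 10.3% of the members against 7.31% and 2.92% of all genes. Since this comparison uses 4 other libraries, its calls can be set beside those with lactate. Med29, Taf1d, Taf4b, Med7 and Med14 rose in both, which is 62.5% of the 8 with lactate and 100% of the 5 without. Gtf2b, Med31, Med6, Tbp and Med28 fell in both, which is 50% of the 10 and 71.4% of the 7. How many of all genes were called in both was not counted, so these shares cannot be read as particular to the members. Called without lactate and not with it were Taf7, which binds Taf1 within TFIID (−1.70 ± 0.29), and Med4, of the Mediator middle (−1.37 ± 0.40). On library totals the split was 13 higher and 4 lower, and 11.6% of all genes were called. The calls of Med4, Med28 and Tbp were lost there. Without early G&N-L replicate 2, 6 members were called, and 6 of the 12 calls were kept in every fit that left out 1 library (Gtf2b, Med6, Med29, Med31, Taf1d and Taf7).

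The members with the smallest p without lactate can be set beside their changes with lactate, given above. Med29 rose by 3.62 ± 0.39 on the log2 scale without lactate (adjusted p = 9.15e-05), from 2.90 and 1.95 CPM to 25.2 and 34.9 CPM. Taf1d rose by 2.68 ± 0.30 (adjusted p = 0.000127), from 39.5 and 37.8 CPM to 271 and 225 CPM. Med31 fell by 3.20 ± 0.37 (adjusted p = 0.000165), from 588 and 518 CPM to 64.0 and 55.9 CPM. The difference between the media was tested as the interaction of stage and lactate over the 8 libraries, in which edgeR called 0 members and 0.00399% of all genes. The smallest adjusted p of a member was 0.119, of Med29 (−3.22 ± 0.52), followed by Med11 (−2.46 ± 0.72) and Taf13 (0.97 ± 0.29). An unadjusted p under 0.05 was reached by 10 members and 1552 genes (6.20% of those tested), and DESeq2 called 3 members, and 1.57% of the genes to which it gave an adjusted p. In the main edgeR fit a difference between the media was therefore not shown for any member, and for Med29 this rests on the setting. Without the filter on low counts edgeR called Med29 and Taf7l, and the 3 members called by DESeq2 were Med22, Med29 and Med31. Over the fits that left out 1 library, the interaction of Med29 ran from −3.57 to −2.88 on the log2 scale. Whether edgeR called Med29 changed with the library left out.

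At the late 2-cell stage, lactate removal asked which members depended on lactate supply once its production was inhibited. In late G&N-L against late G&N embryos edgeR called 0 members, against 0.0439% of all genes. A looser criterion, with the p before adjustment under 0.05 and a change of more than 0.5 on the log2 scale, is called the unadjusted criterion here and was met by 14 members that were lower and 2 that were higher. These are 20.6% and 2.94% of the members, against 5.47% and 1.75% of all genes tested. The median log2 fold change was −0.29 for the members and −0.01 for all genes, and 44 of the 68 members were below 0, as were 50.3% of all genes. DESeq2 called 1 member higher and 6 lower, and 5.06% of the genes to which it gave an adjusted p. Without late G&N replicate 2, 7 members in place of 14 were lower by the unadjusted criterion.

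The smallest p belonged again to Med29, at 91.2 and 135 CPM with lactate and 25.2 and 34.9 CPM without it (−1.91 ± 0.36, adjusted p = 0.118). Med31 was at 119 and 193 CPM with and 64.0 and 55.9 CPM without lactate (−1.38 ± 0.35, adjusted p = 0.248). Med11 was at 14.6 and 35.0 CPM with and 4.47 and 9.53 CPM without (−1.83 ± 0.52, adjusted p = 0.301). In each, both lactate-free libraries were below both lactate-fed ones, and the adjusted p did not pass. The same held for Taf7, at 133 and 214 CPM with and 79.6 and 85.2 CPM without (−1.08 ± 0.28, adjusted p = 0.269), Taf4b (−1.19 ± 0.32), Taf1b of SL1 (−1.30 ± 0.36) and Gtf2h5 (−1.10 ± 0.33).

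Other members lower by the unadjusted criterion were Med4 and Med6 (middle and head), Med23 (tail), Med12, which activates the kinase of the kinase module, Taf1, the largest TFIID subunit, Taf11, a histone-fold partner of Taf13, and Gtf2f2, the smaller TFIIF subunit. Their log2 fold changes ran from −0.77 for Med6 to −3.96 for Med12, and Med12 had 6 and 0 counts without lactate against 33 and 71 with it. The 2 members that were higher were Taf13, at 406 and 445 CPM without against 249.8 and 228 CPM with lactate (0.83 ± 0.21, adjusted p = 0.235), and Med22 (1.25 ± 0.48). Thus the partners Taf11 and Taf13, like the partners Med11 and Med22, were on opposite sides. Non-overlapping groups were seen for 26 members lower and 10 higher, 38.2% and 14.7% of the members against 21.2% and 15.8% of all genes. The summed oocyte markers and the summed 2-cell markers were both higher in the lactate-free than in the lactate-fed libraries, as given above, and their part in these values was not tested.

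**Figure D3:**
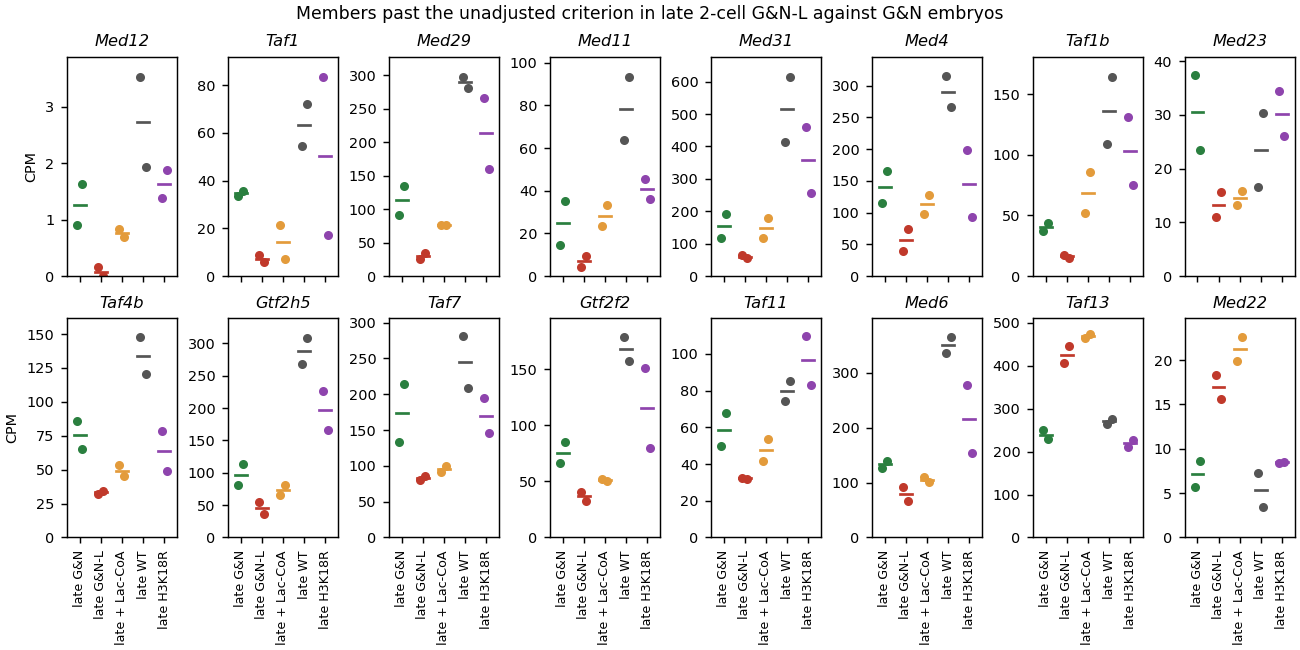
CPM (vertical axes, from 0, scaled separately for each gene) in the 5 late 2-cell groups of the 16 members that met the unadjusted criterion between late G&N-L and late G&N embryos, ordered from the most negative log2 fold change (Med12) to the most positive (Med22). Points are single libraries and bars are means of 2, and the 14 members that were lower have both G&N-L points below both G&N points.

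At the early 2-cell stage, 6 h after lactate was withdrawn, edgeR called 0 members, against 0.0160% of all genes. The unadjusted criterion was met by 2 members higher and 2 lower, each 2.94% of the members, against 2.03% and 2.56% of all genes. Med29 was at 2.90 and 1.95 CPM without against 0.765 and 1.21 CPM with lactate (1.31 ± 0.38, adjusted p = 0.579), hence on the other side than at the late stage. Taf1b was at 23.2 and 24.8 CPM without against 42.9 and 42.1 CPM with lactate (−0.82 ± 0.36), and Med24, a tail subunit, was lower as well (−2.47 ± 1.10). Taf7l rested on 171 counts in 1 library and 0 in the 3 others. Groups did not overlap for 24 members lower and 5 higher, 35.3% and 7.35% of the members against 16.3% and 8.78% of all genes. Under the size factors of DESeq2 and on library totals, 3 members were higher and 0 lower by this criterion, so that its split rests on the scaling.

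Between H3K18R and the libraries labelled WT, edgeR called 0 members, against 0.0359% of all genes. By the unadjusted criterion 4 members were higher and 3 lower, 5.88% and 4.41% of the members against 5.37% and 1.87% of all genes. Groups did not overlap for 12 members higher and 19 lower, 17.6% and 27.9% of the members against 15.6% and 15.5% of all genes. Med30 was at 75.1 and 227 CPM in H3K18R and 63.6 and 37.8 CPM in WT embryos (1.58 ± 0.47, adjusted p = 0.429), and Med27 at 384 and 673 CPM against 278 and 318 CPM (0.83 ± 0.28, adjusted p = 0.542). In both, replicate 2 of H3K18R, the library with the higher oocyte marker sum, was far above replicate 1. Gtf2a2, the small TFIIA subunit, was also higher (0.80 ± 0.33), as was Taf9b (1.21 ± 0.56), whose groups overlapped.

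Taf4b was at 78.4 and 49.2 CPM in H3K18R against 148 and 120.2 CPM in WT embryos (−1.07 ± 0.32, adjusted p = 0.429). Med4 was at 198 and 93.5 CPM against 315 and 266 CPM (−0.99 ± 0.39), and Med6 at 277 and 155 CPM against 336 and 365 CPM (−0.70 ± 0.30). Again replicate 2 of H3K18R was farther from WT than replicate 1. Without that replicate 0 members met the unadjusted criterion, and without replicate 1 it was met by 6 higher and 11 lower, so that the list rests on replicate 2. The 3 lower members were also among the 14 that were lower on late lactate removal, a comparison with which H3K18R against WT shares no library (3 of 3 and 3 of 14), whereas 0 members were higher in both (of 4 and of 2). Of all genes, 86 were lower in both, 18.4% of the 468 in H3K18R and 6.28% of the 1370 in lactate removal. Higher in both were 55 genes, 4.09% of the 1344 in H3K18R and 12.6% of the 438 in lactate removal. On library totals 6 members were higher and 3 lower by this criterion, and under the size factors of DESeq2 2 were higher and 5 lower.

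**Figure D4:**
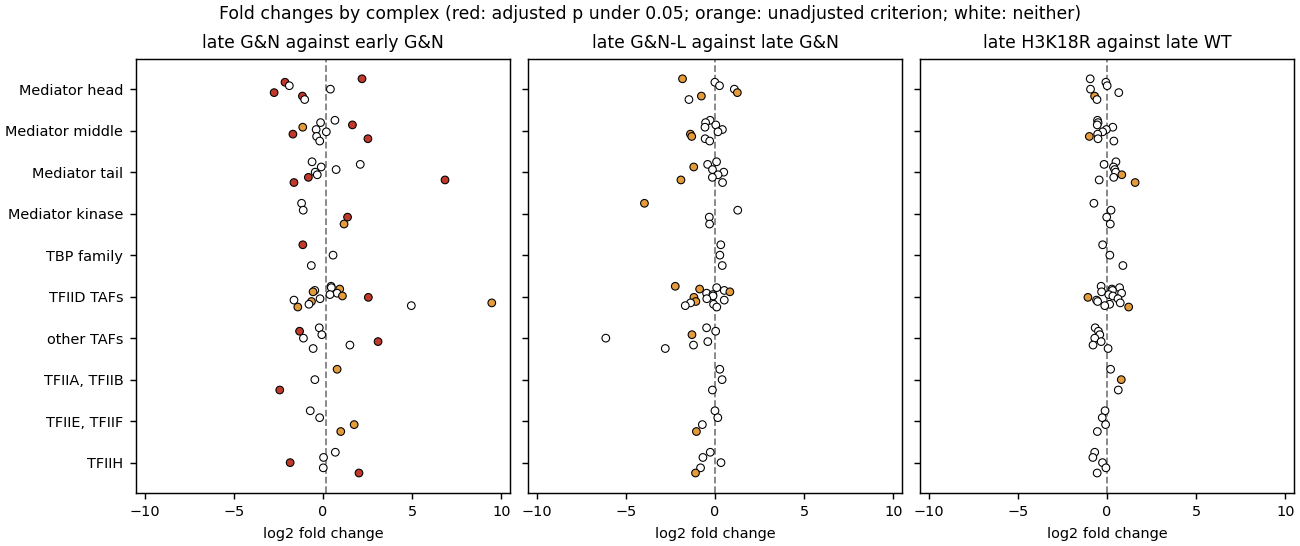
Log2 fold change (horizontal axes) of each member, 1 point per gene, by complex (rows) in late against early G&N, late G&N-L against late G&N, and late H3K18R against late WT embryos. Red points have an adjusted p under 0.05, orange points meet the unadjusted criterion, white points neither, and the dashed line is the median of all genes tested. Red points occur in the first panel, on both sides of the line, and in the second panel orange points lie mostly to its left.

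Lac-CoA injection asked whether expression differed between lactate-free embryos injected with the lactyl donor and those without it. The study describes an injection for the Lac-CoA group and none for the G&N-L and G&N groups. In the comparisons with either group, Lac-CoA and the injection itself therefore cannot be told apart. Against late G&N-L embryos edgeR called 0 members and 0% of all genes, with 10 members and 2090 genes at an unadjusted p under 0.05, and DESeq2 called 5 members higher and 2 lower, and 6.58% of the genes to which it gave an adjusted p. By the unadjusted criterion 8 members were higher and 2 lower, 11.8% and 2.94% of the members against 4.55% and 3.79% of all genes. Groups did not overlap for 29 members higher and 14 lower, 42.6% and 20.6% of the members against 20.7% and 18.6% of all genes, and 45 of the 68 were above 0, as were 48.2% of all genes. Taf1b had the smallest p, at 52.1 and 85.6 CPM with Lac-CoA and 17.6 and 15.4 CPM without (2.06 ± 0.37, adjusted p = 0.137). Med11 was at 23.5 and 33.2 against 4.47 and 9.53 CPM (2.02 ± 0.52, adjusted p = 0.290), and Taf1d at 472 and 592 against 271 and 225 CPM (1.10 ± 0.29, adjusted p = 0.296). Med29, Med31, Med4, Med7 and Gtf2h5 were also higher, with log2 fold changes of 0.70 to 1.34, whereas Med30 (−1.24 ± 0.46) and Med27 (−0.64 ± 0.28) were lower.

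Against late G&N embryos, which had lactate, the Lac-CoA embryos likewise had 0 members called by edgeR and 0% of all genes, with 5 members and 1318 genes at an unadjusted p under 0.05, and DESeq2 called 1 member higher, and 2.54% of the genes to which it gave an adjusted p. By the unadjusted criterion 3 members were higher and 2 lower, 4.41% and 2.94% against 1.70% and 3.56% of all genes. Groups did not overlap for 14 members higher and 19 lower, 20.6% and 27.9% of the members against 14.8% and 18.9% of all genes. Under the size factors of DESeq2 and on library totals, either of which raised the log2 fold change of a gene by a median of 0.13, 5 were higher and 1 lower. Taf13 was at 465 and 473 CPM with Lac-CoA against 249.8 and 228 CPM with lactate (0.97 ± 0.21, adjusted p = 0.341), and Med22 at 19.9 and 22.6 against 5.67 and 8.59 CPM (1.57 ± 0.49, adjusted p = 0.818). Taf7 was at 91.1 and 99.5 against 133 and 214 CPM (−0.87 ± 0.28, adjusted p = 0.818). In each of these genes the Lac-CoA and lactate-fed libraries did not overlap. The Lac-CoA libraries had higher sums of 2-cell markers than the lactate-free and the lactate-fed libraries, and lower sums of oocyte markers than the lactate-free ones, and the part of either in these values was not tested. Both comparisons of Lac-CoA embryos share libraries with that of late lactate removal, so they are not independent of it.

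Several members are pairs of paralogues, and their levels can be compared per kilobase of the canonical transcript. Tbp was at 27.4 ± 8.28 CPM per kilobase in early and 12.5 ± 2.24 in late G&N embryos. Tbpl2, the form that replaces TBP in the oocyte, was at 28.5 ± 0.306 and 18.03 ± 5.68, and Tbpl1, a TBP relative best known from the testis, at 21.3 ± 4.86 and 31.4 ± 0.569 CPM per kilobase. The fall of Tbp was called, while the log2 fold changes of Tbpl2 (−0.66 ± 0.67) and Tbpl1 (0.56 ± 0.30) were not. In late WT and H3K18R embryos Tbpl2 was at 0.802 to 7.85 CPM, below each of the other 10 libraries (19.3 to 39.6 CPM). In those groups Tbpl2 was thus the lowest of the 3 per kilobase, and the oocyte markers were lowest in the same groups. The annotated exons of Tbp share 42.7% of their bases with Pdcd2 on the opposite strand, and those of Tbpl1 29.6% with Slc2a12. The levels of both are therefore uncertain.

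Taf4 was above Taf4b in early G&N embryos, at 6.19 ± 1.19 against 1.87 ± 0.0576 CPM per kilobase, and in late WT embryos Taf4b was above Taf4, at 19.3 ± 2.84 against 8.47 ± 2.44. In late G&N embryos they were at 13.1 ± 5.59 and 10.9 ± 2.13 CPM per kilobase, a difference within the spread. Taf7 exceeded Taf7l, its X-linked paralogue, in every group, with 22.8 ± 1.11 CPM per kilobase or more for Taf7 and 5.52 ± 1.52 or less for Taf7l. In early G&N embryos Taf7l had 0 counts in both libraries, against 60 and 144 counts in late G&N embryos. Taf9b exceeded Taf9 in every group. Taf9 had 0 to 92 counts per library, and 50.7% of its exon bases are shared with Ak6 on the same strand, where reads may have been left uncounted, so its low level is uncertain. Taf9b was at 661 and 484 CPM in early and 156 and 273 CPM in late G&N embryos (−1.42 ± 0.56, adjusted p = 0.125).

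In the kinase module Med13 rose, as given above, and its paralogue Med13l had a log2 fold change of 1.18 ± 0.37 that just missed the threshold (adjusted p = 0.0529). Med13 was the more abundant, at 18.9 ± 3.26 CPM per kilobase against 3.94 ± 0.784 for Med13l in late G&N embryos. Med12 and Med12l were both low, with 0.343 ± 0.338 and 0.981 ± 0.0438 CPM per kilobase in early G&N embryos. Neither was called, and the change of Med12 with stage (−1.21 ± 1.55) turned positive, at 0.51, without early G&N replicate 1.

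**Figure D5:**
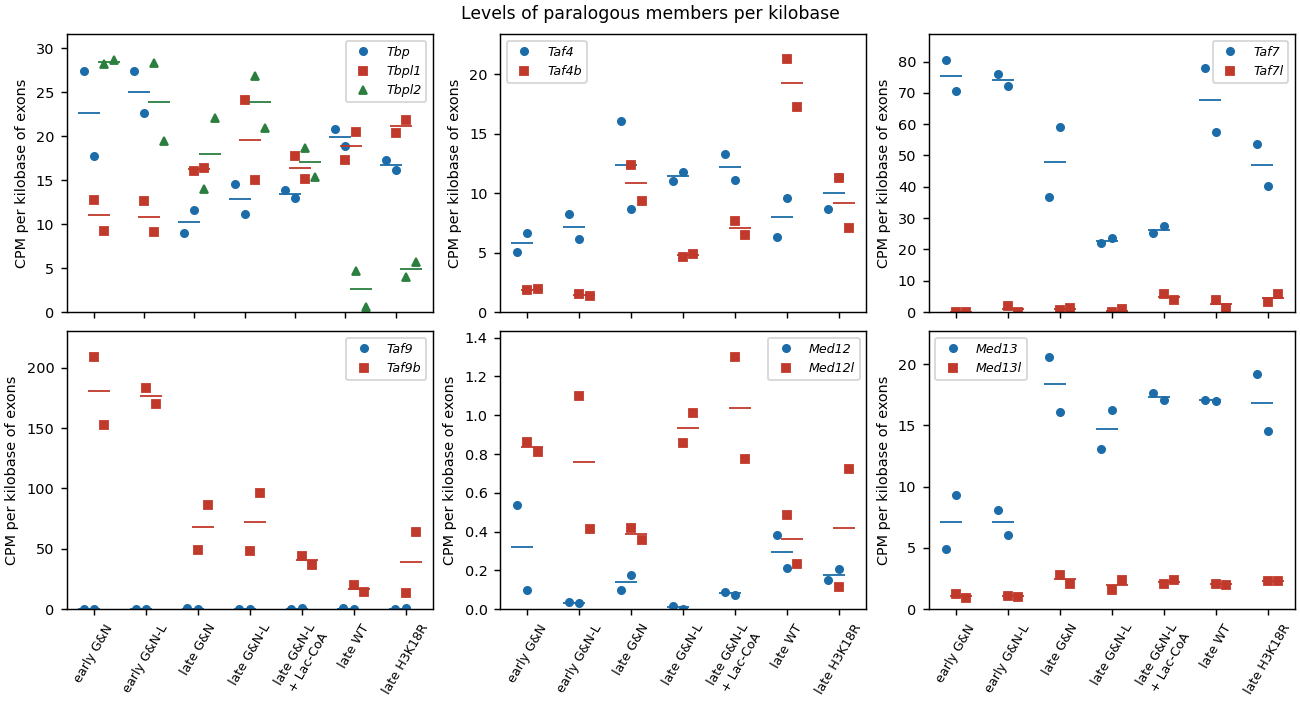
CPM per kilobase of all annotated exons (vertical axes, from 0, scaled separately for each panel) of 6 sets of paralogous members in the 7 groups. Symbols are single libraries and bars are means of 2. Tbpl2 is low in the WT and H3K18R groups, Taf4b overtakes Taf4 in the WT group, and Taf7l, Taf9, Med12 and Med13l have lower means than their paralogues in all 7 groups.

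Of 15 partner genes that are not members (the kinase module genes Cdk8, Cdk19 and Ccnc, the TFIIH genes Cdk7, Ccnh, Mnat1, Ercc2 and Ercc3, the TFIIA gene Gtf2a1l, the TBP regulators Dr1, Drap1 and Btaf1, and the TFIIIB genes Brf1, Brf2 and Bdp1), 3 rose and 1 fell from early to late G&N embryos, when 9.76% of all genes rose and 3.85% fell. Dr1, which represses by binding TBP, rose by 3.72 ± 0.41 on the log2 scale, Bdp1 by 2.11 ± 0.62 and Cdk8 by 1.16 ± 0.28, and Brf2, a TFIIB relative that serves RNA polymerase III, fell by 3.32 ± 0.46. Without lactate Dr1 rose by 1.60 ± 0.38, and Brf2 and Mnat1 fell by 2.83 ± 0.45 and 2.46 ± 0.42. In late lactate removal 0 of the 15 partners were called, and 5 were lower by the unadjusted criterion, as were 5.47% of all genes, among them Ccnc, the cyclin of Cdk8 (−1.61 ± 0.36), and Dr1 (−1.83 ± 0.38).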

How the data were processed

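RNA-seq libraries were made from pools of 2-cell embryos. Reads were checked by the authors with FastQC, trimmed with Trim Galore, aligned to mm39 with HISAT2 and counted per gene with featureCounts, followed by DESeq2. Tool versions are not given in the sources used here. The deposited table holds raw read counts of 56923 genes in 14 libraries. Strand was not stated, so reads of overlapping genes on opposite strands cannot be told apart. The count columns of the H3K18R libraries are named K18A, and the study's methods state more replicates than the 2 per group analysed here.

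Counts were tested with edgeR 4.0.16 (R 4.3.3, limma 3.58.1) by the quasi-likelihood test in a single fit of the 14 libraries with TMM normalization, after filterByExpr left 25041 genes, with Benjamini-Hochberg adjustment over all of them and a threshold of 0.05. The SE is the log2 fold change divided by the square root of F. The second, unadjusted criterion was a p before adjustment under 0.05 and a change of more than 0.5 on the log2 scale. With 2 libraries in each group, exact permutation has a smallest p of 0.333 and was not used. Alternatives were DESeq2 1.42.0, a fit of the libraries compared, other scalings and filters, a replicate block, and leaving out each library. Replicate numbers did not pair the samples (correlations of deviations −0.091 to 0.005). Library totals ran from 20350427 to 61275465 counts. Gene lengths, transcript starts and exon overlaps came from the GENCODE annotation of mm39.

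The members and lists were chosen with earlier results of these data known. Named by rule were the paralogue sets, the 8 smallest p in late lactate removal, the 5 largest called changes each way between stages with lactate, the 3 smallest p in each other comparison and the called partner genes. Other named members were singled out after their values were seen.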

Additional observations from a re-analysis of the deposited data

How the results depend on the processing

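The number of members called by edgeR was 0 in late and early lactate removal, H3K18R, both Lac-CoA comparisons and the interaction, 18 between stages with lactate and 12 without. By the unadjusted criterion these were 16, 4, 7, 10, 5 and 10, and 29 and 30, in the same order. Of the 25041 genes tested, 4252 were higher and 2114 lower by this criterion between stages with lactate, and 3808 and 1655 without. DESeq2 gave 7 in late lactate removal, 7 for Lac-CoA against lactate-free and 1 against lactate-fed embryos, 3 in the interaction, 26 (14 higher, 12 lower) between stages with lactate and 27 without, where it called 30.2% and 27.9% of the genes to which it gave an adjusted p. Without a filter on low counts there were 4 in late and 1 in early lactate removal, 2 for H3K18R, 5 for Lac-CoA against lactate-free embryos and 2 in the interaction, against 1.23%, 0.925%, 1.03%, 1.21% and 1% of the genes tested. Leaving out 1 library gave 0 to 1 in late and early lactate removal, 0 to 4 for H3K18R, 0 to 1 and 0 to 0 for Lac-CoA against lactate-free and lactate-fed embryos, 0 to 2 in the interaction, 11 to 17 between stages with lactate and 6 to 12 without. The causes were not tested.

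With a replicate block, 17 members were called between stages with lactate, 11 without and 0 in each other comparison. Of all genes tested, 12.5% were called between stages with lactate and 9.39% without under this block. The replicate numbers did not pair the samples. Med17 lost its call under the block (−2.15) and on library totals (−1.83). Leaving out 1 library turned 3 named changes: Taf7l in early lactate removal ran from 0 (without early G&N-L replicate 1) to 10.34, Taf9b in H3K18R from −0.29 (without H3K18R replicate 2) to 1.94, and Med12 between stages with lactate from −2.00 to 0.51 (without early G&N replicate 1). On library totals 13 members, in place of 25, had their highest mean in an early group. Low counts limit Med12, Taf7l and Taf9.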
